A study of Mus musculus with 23 samples.

Results

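Fc gamma receptors are the proteins by which leukocytes hold the constant (Fc) part of IgG antibodies. The 5 genes described here are the 3 activating receptors of the mouse (Fcgr1, Fcgr3 and Fcgr4), the inhibitory receptor (Fcgr2b) and the signalling chain that the activating receptors share (Fcer1g). They were taken by symbol from the 32285 genes of the deposited list, where each symbol stands once, under the Ensembl identifiers ENSMUSG00000015947 (Fcgr1), ENSMUSG00000059498 (Fcgr3), ENSMUSG00000059089 (Fcgr4), ENSMUSG00000026656 (Fcgr2b) and ENSMUSG00000058715 (Fcer1g). As background, an antibody that coats a target clusters the activating receptors, the tyrosine motif in the cytoplasmic tail of Fcer1g is phosphorylated by Src family kinases, and Syk then starts the signal that leads to engulfment. Fcgr2b carries an inhibitory motif that recruits the phosphatase Inpp5d (SHIP1) and damps that signal. In brain the receptors are known from microglia and from the macrophages of the brain's borders, and the neonatal receptor Fcgrt, which recycles IgG, from the capillary wall.

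The data are single-cell RNA counts from the brains of mice injected into a vein with a dye-labelled (AF647) antibody, at 45 mg/kg. ATV-TfR (label DNP02_hIgG1_LALAPG_ATV35.23.2) binds the transferrin receptor and was given to TfR mu/hu KI mice, ATV-CD98hc (DNP02 LALAPG LLB2-10-8 monovalent) binds CD98hc and was given to CD98hc mu/hu KI mice, and control IgG (DNP02_hIgG1_LALAPG) was given to C57BL/6 mice. Treatment and genotype therefore cannot be told apart. The labels of all 3 antibodies carry LALAPG, a set of Fc substitutions known to weaken binding to Fc gamma receptors, so no group here received an antibody with an unchanged Fc part. Mice were 12 weeks old (3.3 months in the sample labels), and brain without olfactory bulb, cerebellum, pons and medulla was taken 24 hours after the dose. Dissociated live cells were sorted into a negative, a low, a medium and a high bin of AF647 by gates drawn on ATV-TfR cells and used for all treatments. Each library is 1 bin of 1 pool of 1 male and 1 female mouse, and 23 libraries fall into 12 groups of 2 libraries, except control IgG negative, which has 1 (replicate 2).

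Kept cells numbered 519 to 19341 per library, and deposited UMIs (unique molecular identifiers, each counting 1 captured RNA) ranged from 1861238 to 90307818. The lowest total is that of control IgG high replicate 1. Over all kept cells there were 13254 UMIs of Fcgr1, 26865 of Fcgr3, 1075 of Fcgr4, 9185 of Fcgr2b and 109387 of Fcer1g. Cells were clustered without the 5 genes and named by markers. Microglia-like cells (8626, with 8 of 8 markers) and border macrophage-like cells (838, with 8 of 8) met their lists. Another 4 groups came from the same first cluster as the border macrophage-like cells, a cluster of 3808 cells with 8 of 8 border macrophage markers and 6 of 10 of monocytes or dendritic cells. Clustered again they met no list, so they are called by their leading genes and get no cell type. These are the MHC class II-high cells (1748, led by H2-Eb1, H2-Aa, H2-Ab1 and Cd74), the Ms4a7-high cells (287), the Plac8-high cells (234, led by genes such as Plac8, S100a4, Adgre4 and Ace, which are known from monocytes) and the Acp5-high cells (153). MHC class II-high cells made up 74.8% and 52.1% of the control IgG high libraries and at most 1.34% of any ATV library. Acp5-high cells made up 14.2% of control IgG high replicate 2 and were seen only in control IgG replicate 2. Barcodes whose sequence occurs in more than 1 library made up 6.48% of all barcodes.

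4 of the genes lie on chromosome 1 within 275.749 kb and 1 lies on chromosome 3 (GRCm38, GENCODE vM21 annotation, the build named in the submitters' processing notes). Fcgr2b lies at chr1:170958617-170976547 on the minus strand, and Fcgr4 follows 42.372 kb further at chr1:171018920-171029761 on the plus strand. Fcgr3 at chr1:171051174-171064935 (minus strand) is 21.412 kb beyond Fcgr4, and Fcer1g at chr1:171229572-171234365 (minus strand) is another 164.636 kb away, with 7 coding genes between. Fcgr1 lies at chr3:96282909-96293969 on the minus strand. Fcgr2b and Fcgr3 share 166 of the 50-base words in their exons, out of 5685 in Fcgr2b and 1733 in Fcgr3. These are 9.58% of the words of Fcgr3, which shares none with a further gene. Fcgr2b shares words with further genes too, and 4.38% of its words occur in some other gene. Part of their reads could therefore be assigned to either or dropped, and their levels are uncertain to that extent. Fcgr1, Fcgr4 and Fcer1g share no such word with another gene. An antisense gene (Gm38204) overlaps Fcgr2b and had 21 deposited UMIs, and small RNA genes lie inside Fcgr3 and Fcgr4.

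The 150 bases before a RefSeq start of each gene (GRCm38.p6) are shown because they differ in 2 short motifs known from myeloid genes. Capitals mark GAGGAA, a form of the site bound by the myeloid factor PU.1 (written TTCCTC where it lies on the other strand), and TTCNNNGAA, the form of interferon-gamma activated sites.
Fcgr1: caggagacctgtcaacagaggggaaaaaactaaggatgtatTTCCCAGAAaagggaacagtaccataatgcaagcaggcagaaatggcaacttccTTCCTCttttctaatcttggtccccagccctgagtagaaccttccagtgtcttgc
Fcgr3: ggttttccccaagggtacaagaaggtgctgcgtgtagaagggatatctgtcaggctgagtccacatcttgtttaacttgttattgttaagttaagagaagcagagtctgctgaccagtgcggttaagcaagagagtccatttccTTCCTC
Fcgr4: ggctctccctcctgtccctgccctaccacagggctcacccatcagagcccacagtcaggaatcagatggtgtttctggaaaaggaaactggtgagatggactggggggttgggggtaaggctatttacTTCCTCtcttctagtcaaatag
Fcgr2b: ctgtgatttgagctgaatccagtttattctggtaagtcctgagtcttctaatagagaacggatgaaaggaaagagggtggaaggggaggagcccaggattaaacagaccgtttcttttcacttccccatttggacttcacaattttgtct
Fcer1g: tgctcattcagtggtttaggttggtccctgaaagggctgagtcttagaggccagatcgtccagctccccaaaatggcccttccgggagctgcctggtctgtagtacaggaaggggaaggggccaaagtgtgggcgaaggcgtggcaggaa

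These windows are chr3:96293970-96294119 (Fcgr1, minus strand), chr1:171059404-171059553 (Fcgr3, minus; a second start of this gene has the window chr1:171059395-171059544, which is not shown), chr1:171018776-171018925 (Fcgr4, plus), chr1:170976072-170976221 (Fcgr2b, minus) and chr1:171234350-171234499 (Fcer1g, minus). Each sequence runs 5′ to 3′ toward the start. The windows of Fcgr3 and Fcgr2b lie inside the longer GENCODE genes, which begin further upstream. Both strands were searched. GAGGAA occurred in the windows of all 3 activating receptors. It lay 55 to 50 bases before the start of Fcgr1, 6 to 1 before the shown start of Fcgr3 (15 to 10 before its second start) and 22 to 17 before that of Fcgr4. TTCNNNGAA occurred in the window of Fcgr1 at 109 to 101 bases before the start. Neither pattern of letters occurred in the windows of Fcgr2b and Fcer1g, though the shorter GGAA stands in both. Of 32851 RefSeq promoter windows of the same length, 14.5% held GAGGAA and 4.09% held TTCNNNGAA. These are matches of letters and no binding was measured.

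The levels of the 5 genes by cell class follow, as UMIs of the gene per 1000000 UMIs of the class (CPM), summed over all libraries. For most classes the range over the libraries with at least 20 cells of the class stands beside the level. Monocyte or dendritic cell-like cells (180 cells over 21 libraries) had 1 such library, so their levels have no spread, and its value is given. Classes are clusters of the same cells, so their levels are described and not tested.

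Fcgr1 encodes the high-affinity IgG receptor. It was highest in microglia-like cells at 312 CPM (242 to 398 in 17 libraries), followed by MHC class II-high cells at 272 CPM (172 to 412 in 19) and border macrophage-like cells at 250.3 CPM (154 to 338 in 13). The ranges of these 3 classes overlap, so their order is not beyond the spread over libraries. Ms4a7-high cells had 210.3 CPM (157 to 224 in 4), Plac8-high cells 115 CPM (55.5 to 238 in 4) and Acp5-high cells 37.5 CPM (33.5 and 54.2). Monocyte or dendritic cell-like cells had 12.2 CPM (6.31 in the 1 library) and neutrophil-like cells 1.42 CPM, from 1 UMI. Endothelial-like and astrocyte-like cells, which should lack the gene, had 0.181 and 0.463 CPM. Free RNA in the droplets could give such a level, but it was not measured.

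Fcgr3 encodes a low-affinity activating receptor. It stood at 655 CPM in microglia-like cells (464 to 864), 453 CPM in border macrophage-like cells (358 to 621) and 398 CPM in MHC class II-high cells (329 to 524). Unlike Fcgr1, it was also found in neutrophil-like cells at 239 CPM (211 to 250.2 in 4 libraries). Monocyte or dendritic cell-like cells had 91.5 CPM, but 196 in the 1 library with at least 20 of them. Endothelial-like and astrocyte-like cells had 0.368 and 1.01 CPM.

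Fcgr4 encodes an activating receptor known from monocytes, some macrophages and neutrophils. It had the fewest UMIs of the 5 genes and followed other classes than Fcgr1 and Fcgr3. MHC class II-high cells had 97.5 CPM (0 to 168), Plac8-high cells 86.7 CPM (43.3 to 101), Acp5-high cells 72.4 CPM (54.2 and 80.5) and Ms4a7-high cells 69.5 CPM (42.5 to 73.7). Neutrophil-like cells had 49.7 CPM (13.9 to 51.1). Microglia-like cells stood at 9.43 CPM (0 to 62.5) and border macrophage-like cells at 6.72 CPM (0 to 34.5), from 12 UMIs. A UMI of Fcgr4 was found in 16.9% of MHC class II-high cells, 2.67% of microglia-like cells and 1.43% of border macrophage-like cells, against 0.0137% of endothelial-like cells. MHC class II-high cells had a median of 2067.5 UMIs, microglia-like cells 3111.5 and border macrophage-like cells 1849.5. With every cell thinned to 1500 UMIs the shares were 13.7%, 1.20% and 1.08%. Thinning left out 514, 1655 and 285 shallower cells.

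Fcgr2b, the inhibitory receptor, was highest in border macrophage-like cells at 575 CPM (415 to 777), followed by MHC class II-high cells at 279.6 CPM (190.1 to 431). Monocyte or dendritic cell-like cells had 305 CPM, but 486 in the 1 library with at least 20 of them, so their place in this order is not settled. Microglia-like cells had 162 CPM (132 to 179), below each border macrophage-like and each MHC class II-high library. B cell-like cells had 110.0 CPM (47.0 to 161), with the 3 activating receptors at 9.30 CPM or less. This is the one Fc gamma receptor that B cells are known to carry.

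The UMIs of the 3 activating receptors per UMI of Fcgr2b give 1 number for how the classes differ. UMIs are not scaled by transcript length, so the number is for comparing classes and is no count of proteins. It was 6.03 in microglia-like cells (4.91 to 7.56 over libraries), 2.75 in MHC class II-high cells (1.56 to 4.30) and 1.24 in border macrophage-like cells (0.90 to 1.80). Microglia-like libraries did not overlap with those of these other 2 classes, while MHC class II-high and border macrophage-like libraries overlapped between 1.56 and 1.80. Ms4a7-high cells had 6.78 (5.71 to 9 in 3 libraries), which overlaps with microglia-like cells, but these are 3 bins of 1 pool (control IgG replicate 2), so the range is no spread over pools. Neutrophil-like cells had 9.27, from 22 UMIs of Fcgr2b, and monocyte or dendritic cell-like cells 0.343, both with no spread over libraries. B cell-like cells had 0.0986, and 0 in each of the 4 libraries with enough cells and UMIs.

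Fcer1g, the shared chain, was found in nearly all leukocyte classes. Acp5-high cells had 6742 CPM (6166 and 6966 in their 2 libraries, both of control IgG replicate 2), Ms4a7-high cells 3664 CPM (3584 to 4047 in 4) and Plac8-high cells 2983 CPM (2621 to 3443 in 4). MHC class II-high, border macrophage-like and microglia-like cells had 2431 CPM (1421 to 3321), 2398 CPM (1671 to 2796) and 2182 CPM (1664 to 2916), which do not differ beyond their spread. Neutrophil-like cells had 1829 CPM (1162 to 1871 in 4) and T or NK cell-like cells 773 CPM (492 to 1624 in 4). In such cells the chain is known to serve other receptors besides the Fc gamma receptors. In Acp5-high cells the chain stood high while Fcgr1, Fcgr3 and Fcgr2b stood at 37.5, 63.3 and 53.0 CPM, lower than in the 3 other groups called by leading genes and in border macrophage-like cells.

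**Figure D1:**
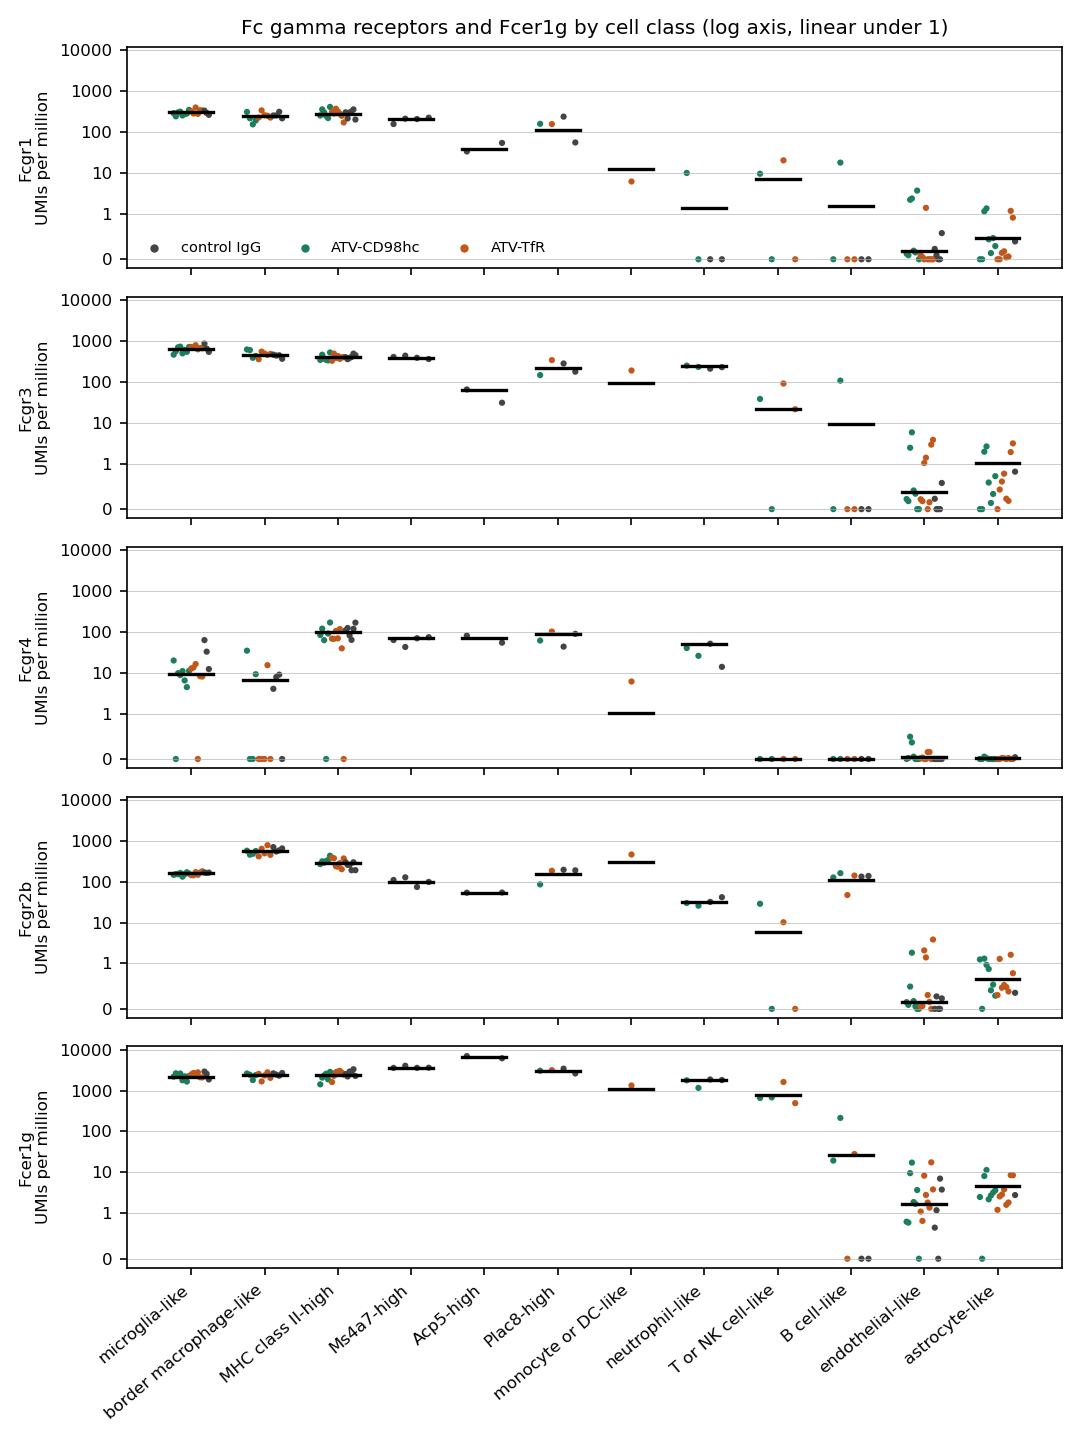
Level of each gene by cell class (CPM, log axis), with 1 point for each library with at least 20 cells of the class. Fcgr4 stands near 100 CPM in MHC class II-high cells and near 10 CPM in microglia-like and border macrophage-like cells, while Fcgr2b is highest in border macrophage-like cells at 575 CPM.

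Over whole libraries, all UMIs of a library are summed, so fewer cells of a type and less RNA per cell cannot be told apart. From the negative to the high bin the 5 genes went up in control IgG and down in ATV-TfR, and in ATV-CD98hc all but Fcgr4 went down. Fcgr4 had 55.8 and 54.1 CPM in control IgG high, 14.8 and 15.6 in medium, 3.05 and 2.97 in low and 0.912 in negative. In ATV-TfR it had 0.230 and 0.177 CPM in high and 2.51 and 1.27 in negative, and in ATV-CD98hc 0.725 and 0.540 in high and 0.382 and 0.711 in negative. Both control IgG high libraries lie above all 21 others.

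Fcgr1 had 158 and 76.4 CPM in control IgG high, 16.4 and 13.9 in low and 19.1 in negative. Its ATV-TfR values were 1.03 and 0.968 CPM in high and 83.2 and 56.3 in negative. So the brightest control IgG libraries and the dye-negative ATV-TfR libraries overlap in this gene. Fcgr3 behaved alike, with 209 and 137 CPM in control IgG high, 2.14 and 2.39 in ATV-TfR high and 167 and 111 in ATV-TfR negative. Fcgr2b had 159 and 92.5 CPM in control IgG high, 25.7 and 18.4 in low, and 43.7 and 34.2 in ATV-TfR negative. Fcer1g had 1363 and 2126 CPM in control IgG high, 212 and 206 in low, 136 in negative, 12.6 and 12.6 in ATV-TfR high and 534 and 361 in ATV-TfR negative. For Fcgr2b and Fcer1g both control IgG high libraries lie above all others. In ATV-CD98hc the fall from negative to high was not steady. Fcer1g had 224 and 185 CPM in low, 134 and 135 in negative and 30.9 and 17.5 in high. Fcgr3 had 63.1 and 49.8 CPM in low and 41.3 and 40.1 in negative. For Fcgr1 these were 29.1 and 22.9 CPM in low and 21.5 and 19.4 in negative. Low and negative overlapped for Fcgr2b and Fcgr4.

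**Figure D2:**
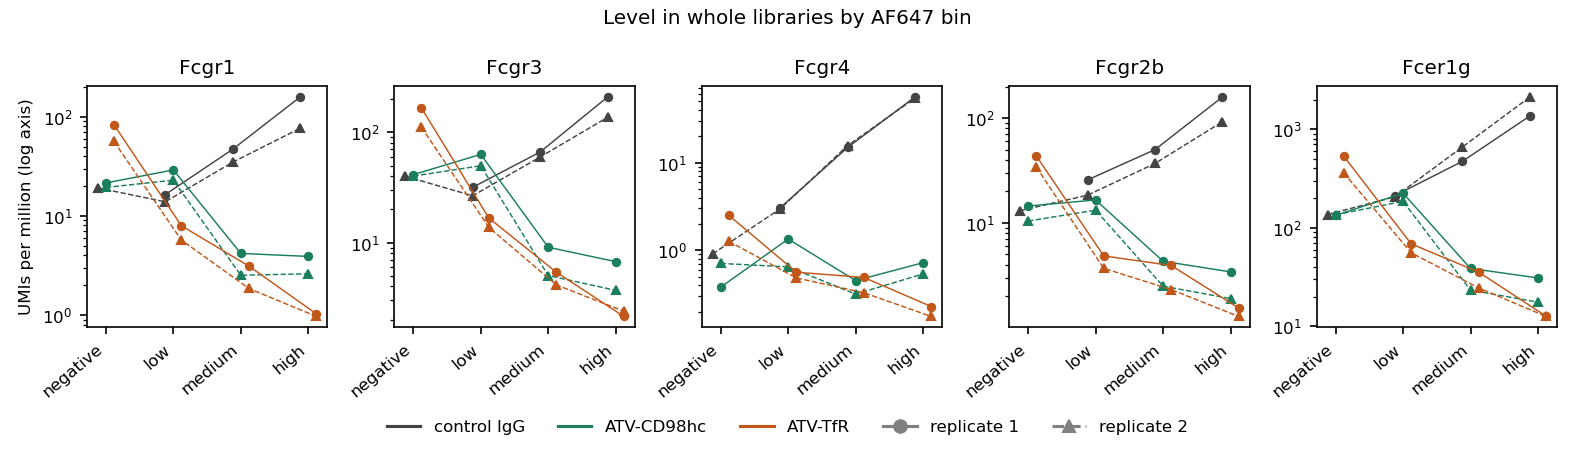
Whole-library level of each gene (CPM, log axis) by treatment and bin, with 1 point per library and 1 library in control IgG negative. From negative to high the 5 genes go up in control IgG and down in ATV-TfR, as with Fcgr4 at 0.912 against 55.8 and 54.1 CPM in control IgG.

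These libraries were compared with edgeR's quasi-likelihood test, with Benjamini-Hochberg adjustment over 21992 genes and a call at an adjusted p below 0.05. The share of all genes called stands beside each count. In control IgG high against low, all 5 genes were higher, where 22.7% of genes were called. The log2 differences were 4.11 ± 0.36 (SE) for Fcgr4 (adjusted p = 2.27e-07), 2.98 ± 0.29 for Fcer1g, 2.85 ± 0.33 for Fcgr1, 2.48 ± 0.28 for Fcgr3 and 2.42 ± 0.32 for Fcgr2b. Against the single control IgG negative library, which is assumed to vary like the other groups, all 5 were higher by 2.05 to 5.85, with 36.2% of genes called. In ATV-TfR high against negative all 5 were lower, from 2.92 (Fcgr4) to 5.82 (Fcgr1) on the log2 scale below, where 62.4% of genes were called. In ATV-CD98hc 4 of 5 were lower and Fcgr4 did not pass, at 0.56 ± 0.44 (adjusted p = 0.279), where 62.6% of genes were called.

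The difference of these high against negative contrasts was itself called for all 5 genes in each pair of treatments. Between ATV-TfR and control IgG the share of genes called was 40.5%, between ATV-CD98hc and control IgG 35.6%, and between the ATVs 12.3%. The first 2 of these share their control IgG libraries, and the third is the difference between them, so it is no separate evidence. Within the high bin all 5 genes were lower in ATV-TfR than in control IgG, by 62.8-fold (Fcgr3) to 221-fold (Fcgr4), with 46.4% of genes called. In ATV-CD98hc they were lower by 28.2-fold (Fcgr3) to 73.2-fold (Fcgr4), with 43.5% called. Between the ATVs in the high bin, Fcgr1, Fcgr3 and Fcgr4 were lower in ATV-TfR (log2 differences of -1.67, -1.15 and -1.60), where 4.62% of genes were called. Fcgr2b (-0.87, adjusted p = 0.222) and Fcer1g (-0.90, adjusted p = 0.0828) did not pass, though Fcer1g did with DESeq2 (-0.88, adjusted p = 0.0419). The 3 calls were not all kept when a pool was left out, which leaves 1 library in a group. The differences of Fcgr1, Fcgr3 and Fcgr4 were then -1.55, -0.92 and -1.63 without ATV-TfR replicate 1. Without ATV-CD98hc replicate 1 they were -1.47, -0.79 and -1.48. With control IgG replicate 1 left out, both compared groups keep 2 libraries, and the calls of Fcgr3 (-1.02) and Fcgr4 (-1.46) were still lost. That of Fcgr4 (-1.51) was also lost without control IgG replicate 2.

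In the negative bin all 5 genes were higher in ATV-TfR than in ATV-CD98hc, by 1.59 to 1.89 on the log2 scale, where 13.9% of genes were called. Without ATV-TfR replicate 1 the differences were 1.34 (Fcgr4) to 1.47 (Fcgr1), but only Fcgr3 (1.46, adjusted p = 0.0459) kept its call, and 122 genes in all were called in place of 3055. Without ATV-CD98hc replicate 1 Fcgr4 was at 1.39 (adjusted p = 0.113). Against control IgG negative, Fcgr1, Fcgr3, Fcgr2b and Fcer1g were higher in ATV-TfR by 1.49 to 1.78, and Fcgr4 at 0.98 did not pass (adjusted p = 0.188), with 8.58% of genes called. Microglia-like cells made up 29.1% and 18.5% of the ATV-TfR negative libraries, 8.89% and 6.04% of those of ATV-CD98hc and 7.74% of that of control IgG.

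The UMIs of these sums came from different cells by bin. In control IgG high, MHC class II-high cells held 88.0% of the Fcgr1 UMIs, 84.0% of those of Fcgr3, 76.2% of Fcgr4, 85.5% of Fcgr2b and 45.8% of Fcer1g. Acp5-high cells held another 45.5% of the Fcer1g UMIs there and 17.8% of those of Fcgr4, but the 2 libraries differ. Replicate 1 had 0 Acp5-high cells, and MHC class II-high cells held 2178 of its 2371 Fcer1g UMIs. In replicate 2 Acp5-high cells held 4153 of 6760 Fcer1g UMIs and 48 of 172 Fcgr4 UMIs, and MHC class II-high cells held 2007 and 112. In control IgG low the share moved to border macrophage-like cells for Fcgr2b (59.7%), while Ms4a7-high cells held 36.3% of the Fcgr4 UMIs. The latter share rests on replicate 2, where 114 such cells held 30 of 57 UMIs, against 20 cells and 3 of 34 UMIs in replicate 1. In the negative bins microglia-like cells held 70.0% to 83.2% of each gene's UMIs. Cells left with no name, which do not include the 4 groups called by leading genes, held at most 17.5% of a gene over all libraries.

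**Figure D3:**
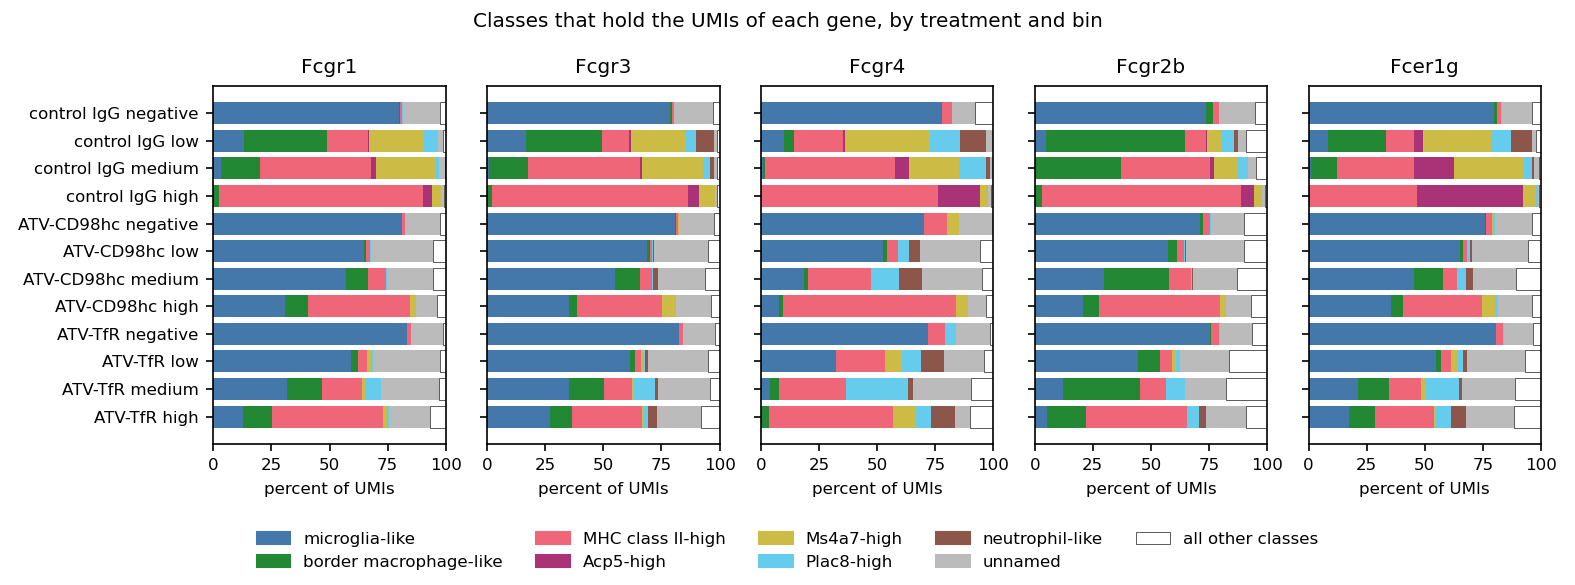
Share (percent) of each gene's UMIs held by each cell class, by treatment and bin. MHC class II-high cells hold 88.0% of the Fcgr1 UMIs in control IgG high, and microglia-like cells hold 70.0% to 83.2% of each gene's UMIs in the negative bins.

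Within a class the comparison asks whether cells of 1 kind that took up more antibody, or another antibody, carry more receptor RNA. MHC class II-high cells gave the closest view of control IgG uptake. Their Fcgr4 was 108 and 124 CPM in control IgG high, 118 and 167 in medium and 81.4 and 63.4 in low. In the high bins of the ATVs it was 67.8 and 67.1 CPM (ATV-TfR) and 83.4 and 119 CPM (ATV-CD98hc). It was listed at 0 UMIs in ATV-TfR negative replicate 2 and ATV-CD98hc low replicate 2, which hold 33 and 25 such cells. In control IgG both bright bins lie above the low bin, but the ATV-CD98hc high values overlap with those of control IgG high.

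Fcgr1 in the same cells was 304 and 215 CPM in control IgG high and 298 and 317 in low, 310.1 and 283 in ATV-TfR high and 254 and 358 in ATV-CD98hc high. Fcgr3 was 401 and 359.5 CPM in control IgG high and 387 and 407 in low, and 329 and 492 in ATV-TfR high. Both genes overlap between all of these groups. Fcgr2b was 297 and 257 CPM in control IgG high, 258 and 190.1 in low, 388 and 373 in ATV-TfR high and 201 and 369 in ATV-TfR negative. Its ATV-TfR high values lie above those of control IgG high, and those of ATV-CD98hc high (268 and 313) overlap with them. Fcer1g was 2533 and 2213 CPM in control IgG high and 2923 and 2852 in low, 1618 and 2290.2 in ATV-TfR high and 2741 and 2453 in negative, and 1421 and 2079 in ATV-CD98hc high and 2347 and 2577 in low. In each treatment the chain was lower in both high libraries than in the 2 libraries it was compared with.

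**Figure D4:**
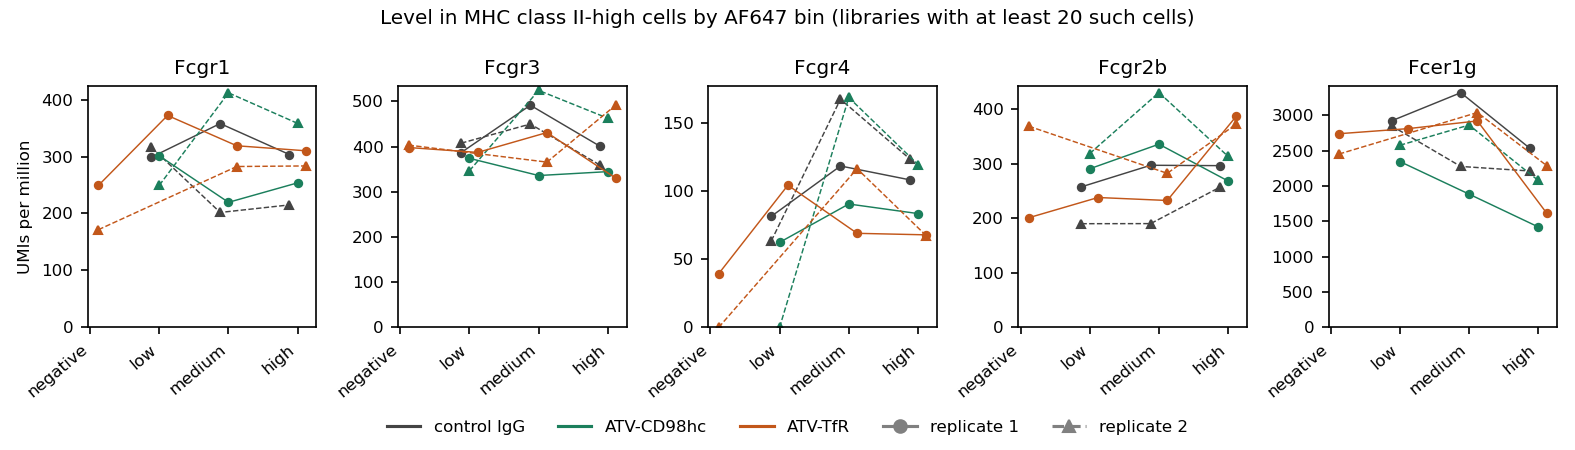
Level of each gene (CPM) in MHC class II-high cells, with 1 point per library of at least 20 such cells, by treatment and bin, and lines joining the bins of 1 pool. Fcer1g in the high bins runs from 1421 to 2533 CPM and stands below the low or negative libraries of the same treatment, while the other genes overlap between most groups.

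No difference in these cells passed the test. Among 4465 genes tested, 0.269% were called between control IgG high and low, and the 5 genes had log2 differences of -0.44 to 0.49, with Fcgr4 at 0.49 ± 0.47. In ATV-TfR high against negative 5.98% of genes were called, Fcgr4 differed by 1.14 ± 0.71 (adjusted p = 0.387) and Fcer1g by -0.68 ± 0.35 (adjusted p = 0.278). In ATV-CD98hc high against low 3.92% of genes were called and Fcer1g differed by -0.72 ± 0.35 (adjusted p = 0.262). With the pool as a replicate block that difference was -0.76 at an adjusted p of 0.0399, though same-pool libraries of these bins did not deviate together (r = -0.05). Within the high bin 0.179% of genes were called between ATV-TfR and control IgG, 0.0896% between ATV-CD98hc and control IgG and 0% between the ATVs. None of the 5 genes was, and Fcgr4 was the most different at -0.79 ± 0.49 for ATV-TfR against control IgG (adjusted p = 1). By unadjusted p, 148, 98 and 123 genes were under 0.05 in these 3 comparisons. Summed markers of monocytes or dendritic cells, which include H2-Aa and H2-Ab1, ran lower in the high bins (8017 to 12453 CPM in control IgG, 6811 to 10884 in ATV-TfR) than in control IgG low (11633 to 21078) and ATV-TfR negative (17459 to 20388), with overlap in control IgG. Those of border macrophages ran higher (3646 to 4279 against 2659 to 2870 in control IgG). In ATV-CD98hc high against low, markers of monocytes or dendritic cells were 9664 to 11006 against 15173 to 15935 CPM, endothelial markers 179 to 276 against 41.6 to 93.5, astrocyte markers 29.8 to 36.3 against 228 to 568, and border macrophage markers 4130.3 to 4193 against 2482 to 2577. Endothelial markers in ATV-TfR were 522 to 562 CPM in high and 0 to 21.9 in negative. Their part in the levels of the receptors was not tested. A refit without cells that held a UMI of Cldn5, Flt1, Slc1a2 or Aldoc called none of the 5 genes where it could be fitted. None was called in the main fit, so the refit had no call to lose.

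Summing border macrophage-like cells and the 4 groups called by leading genes gives more cells, but what type all of them are is unsure and the mix moves with the bin. Of the cells of these 5 groups in control IgG low, 138 of 239 and 160 of 367 were border macrophage-like, and in control IgG high 388 of 403 and 375 of 519 were MHC class II-high. Fcgr4 in these sums was 105 and 101 CPM in control IgG high, 106 and 83.3 in medium, 35.8 and 46.1 in low and 18.8 in negative. The high libraries lie above the low ones. The log2 difference of high against low was 1.31 ± 0.39 (adjusted p = 0.103, 1.82% of 7216 genes called). It passed with the replicate block (1.30, adjusted p = 0.00221), with no filter on low counts (1.34, adjusted p = 0.00108) and with at least 50 cells per library (1.31, adjusted p = 0.0453). The low Fcgr4 of border macrophage-like cells stands beside this difference, and the part of the mix in it was not tested.

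Fcer1g in the 5 groups together was 2576 and 4021 CPM in control IgG high, 1741 and 2148 in ATV-CD98hc high and 2175 and 2375 in ATV-TfR high. The larger control IgG value is replicate 2, the pool with 102 Acp5-high cells among its 519 cells of the 5 groups. ATV-CD98hc against control IgG in the high bin gave -0.83 ± 0.24 (adjusted p = 0.310, 0.0416% of genes called), and -0.94 with no filter (adjusted p = 0.0148). In the medium bin it gave -0.73 ± 0.24 (adjusted p = 0.0857, 3.49% called), and -0.84 with no filter (adjusted p = 0.0217). Without control IgG replicate 1, which leaves the pool with Acp5-high cells alone, it gave -1.12 in the high bin (adjusted p = 0.0145) and Fcgr1 gave 1.10 (adjusted p = 0.0344). No member passed in the other comparisons of the 5 groups. The shares of genes called there were 3.28% (ATV-TfR high against negative), 0.443% (control IgG high against negative), 0.859% (ATV-TfR against control IgG in the high bin), 0% (between the ATVs in the high bin, where 414 genes had an unadjusted p under 0.05) and 0.457% (the difference of high against negative between ATV-TfR and control IgG). Fcgr2b for ATV-TfR against control IgG in the high bin was 0.62 ± 0.32, and 1.05 without control IgG replicate 1 (adjusted p = 0.0347). In the high bin, summed border macrophage markers were 4695 to 7056 CPM in ATV-TfR, 4478 to 4632 in ATV-CD98hc and 2481 to 4375 in control IgG. Endothelial markers were 462 to 565, 175 to 274 and 7.76 to 79.5. In the medium bin, border macrophage markers were 7956 to 8231 CPM in ATV-CD98hc and 3255 to 4338 in control IgG, and endothelial markers 432 to 539.9 and 15.3 to 60.1. Their part in the values of Fcer1g and Fcgr2b was not tested. A refit without cells that held a UMI of Cldn5, Flt1, Slc1a2 or Aldoc called no member where it could be fitted. None was called in the main fit, so the refit had no call to lose.

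Border macrophage-like cells, the class with the most Fcgr2b, were too few in the negative bins and in the control IgG and ATV-CD98hc high bins, so the medium bin was set against the low. Fcgr2b was 581 and 649 CPM in control IgG medium against 697 and 544 in low, 777 and 451 against 635 and 494 in ATV-TfR, and 479.8 and 559 against 569 and 456 in ATV-CD98hc. The bins overlap in each treatment. The log2 differences were 0.01 ± 0.24, 0.26 ± 0.30 and 0.00 ± 0.28. Fcgr3 in ATV-CD98hc was 388 and 431 CPM in medium and 621 and 601 in low, which do not overlap, with a difference of -0.61 ± 0.27 (adjusted p = 0.516). Fcgr1 (154 and 192 against 310 and 217 CPM) and Fcer1g (1805 and 2391 against 2620 and 2433) were also lower in medium without overlap there. Of 4130 genes, 0.0242% were called in control IgG, 0% in ATV-TfR (where 225 had an unadjusted p under 0.05) and 0.702% in ATV-CD98hc, with none of the 4 tested members among them. Fcgr4 had too few UMIs to be tested in this class. In ATV-CD98hc, summed microglia markers were 1374 to 1696 CPM in medium and 2309.7 to 4400.4 in low, astrocyte markers 80.0 to 119 and 448 to 828, and endothelial markers 421 to 525 and 41.4 to 68.9. Their part in the values of Fcgr3, Fcgr1 and Fcer1g was not tested. A refit without cells that held a UMI of Cldn5, Flt1, Slc1a2 or Aldoc called no member where it could be fitted. None was called in the main fit, so the refit had no call to lose.

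Microglia-like cells held 64.7% of all Fcgr1 UMIs and 67.0% of those of Fcgr3. Fcgr1 was 289 and 242 CPM in ATV-CD98hc high, 283 and 349 in negative, 341 and 337 in ATV-TfR negative and 263 in control IgG negative. Fcgr3 was 464 and 565 CPM in ATV-CD98hc high, 544 and 716 in negative, 675 and 664 in ATV-TfR negative and 542 in control IgG negative. Fcgr2b stayed between 132 and 179 CPM in all 17 libraries. Fcer1g was 2188 and 2645 CPM in ATV-CD98hc high and 1664 and 2265 in negative, 2480.3 and 2692 in ATV-TfR low and 2117 and 2096 in negative, and 2916 and 2577 in control IgG low and 1872 in negative. In ATV-CD98hc low the chain was 2312 and 2615 CPM. It was higher in low than in negative without overlap in all 3 treatments. In ATV-CD98hc, medium (1784 and 2233 CPM) and high overlapped with negative, while ATV-TfR medium (2448 and 2789) lay above its negative. From negative to high the chain rose and Fcgr3 fell in each of the ATV-CD98hc pools. Fcgr3 in ATV-CD98hc low was 700 and 729 CPM, above both high libraries. Fcgr4 had 62.5 and 32.6 CPM in control IgG low, from 6 UMIs in 2 of 27 cells and 3 UMIs in 1 of 24 cells, against 12.2 CPM in control IgG negative, from 39 UMIs in 36 of 871 cells.

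**Figure D5:**
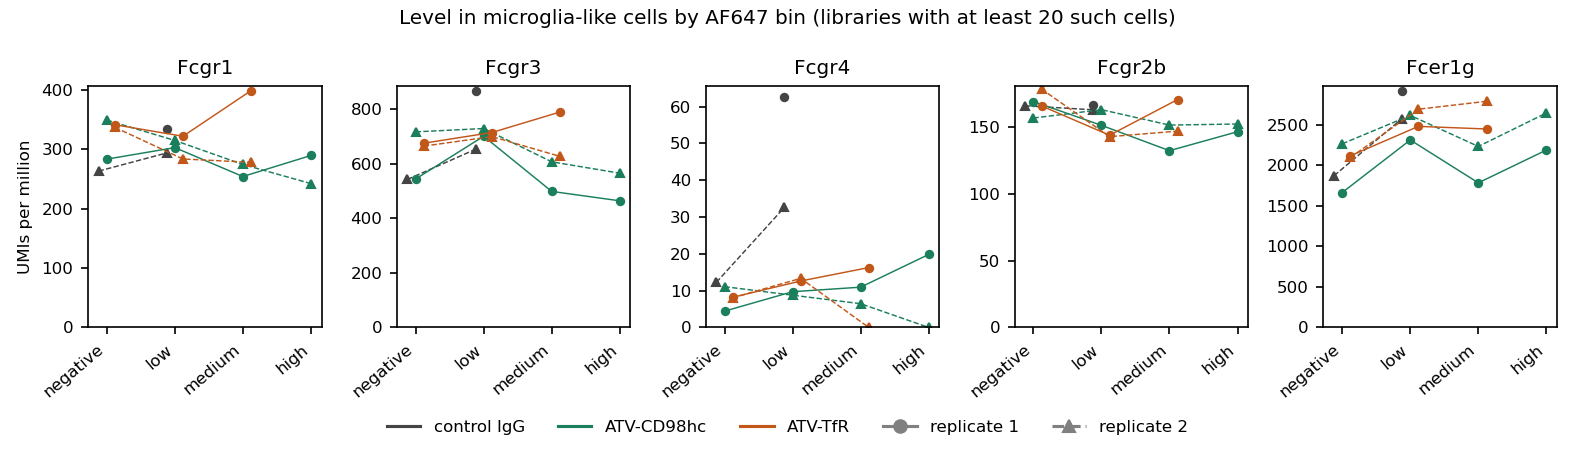
Level of each gene (CPM) in microglia-like cells, with 1 point per library of at least 20 such cells, by treatment and bin, and lines joining the bins of 1 pool. Fcgr2b stays between 132 and 179 CPM in all 17 libraries, and Fcgr4 rests on few UMIs in most of them.

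No member passed in microglia-like cells, among 10654 genes tested. In ATV-CD98hc high against negative 2.95% of genes were called, in ATV-TfR low against negative 4.45%, in ATV-CD98hc low against negative 0.695% and in control IgG low against negative 2.06%. Fcer1g differed by 0.40 ± 0.23, 0.40 ± 0.22, 0.38 ± 0.23 and 0.62 ± 0.29 in these, and with the replicate block it passed in ATV-TfR (0.40, adjusted p = 0.0481; r between same-pool libraries 0.13). Fcgr4 differed by 2.03 ± 0.72 in control IgG low against negative (adjusted p = 0.155) and passed with DESeq2 (2.15, adjusted p = 0.0404), on the 3 cells of control IgG low with a UMI. ATV-CD98hc against control IgG in the low bin gave -2.37 ± 0.72 for Fcgr4 (adjusted p = 0.0800, 1.86% of genes called), which passed with DESeq2 (-2.48, adjusted p = 0.00286) and with no filter (-2.28, adjusted p = 0.0391). In the negative bin 0.0188% of genes were called between the ATVs, 0.141% between ATV-TfR and control IgG and 0.0375% between ATV-CD98hc and control IgG. The members differed there by at most 1.00 on the log2 scale (Fcgr4), with none called. Summed markers of monocytes or dendritic cells in microglia-like cells were 67.4 to 134 CPM in ATV-CD98hc high and 18.5 to 22.1 in negative, 55.7 to 82.4 in ATV-TfR low and 19.7 to 20.6 in negative, and 109 to 115 in control IgG low and 37.4 in negative. Their part in the values of Fcgr4 and Fcer1g was not tested.

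Endothelial-like cells had few UMIs of the members. Fcer1g had 0.815 and 0.794 CPM in ATV-CD98hc high and 9.57 and 17.3 in low. Astrocyte-like cells of these libraries had 2.50 and 0 CPM in high and 8.14 and 11.4 in low. Their Fcgr3 was 0 and 0 CPM in high and 1.96 and 2.64 in low. In endothelial-like cells Fcer1g had 1.10 and 0.832 CPM in ATV-TfR high and 17.6 and 3.83 in negative, the last 2 from 6 and 1 UMIs. In astrocyte-like cells it had 1.21 and 2.58 CPM in ATV-TfR high and 8.57 and 8.50 in negative. All 4 members tested were lower in ATV-CD98hc high than in low (-3.21 to -4.27, 12.8% of 15268 genes called). The filter on low counts asks for enough UMIs in 1 library only, the size of the smallest group. Members could thus enter the test through ATV-CD98hc low, where they are high, so these calls are not read as a result about them. With a stricter filter, which also asks for 1 library, 2 of the 4 members (Fcgr3 and Fcer1g) had enough UMIs to be tested, and both were called. Fcer1g was lower in ATV-TfR high than in negative (-3.43 ± 0.80, adjusted p = 0.00787, 6.56% called), and DESeq2 called Fcgr3 and Fcgr2b there too. The differences of the 4 members tested there ran from -4.56 to 3.36, with SEs of up to 11.1. The part of free RNA in the differences of endothelial-like cells was not tested. Fcgrt, the neonatal receptor, was measured in 5 classes and had 611 CPM in endothelial-like cells (284 to 708 over libraries), 409 in border macrophage-like (311 to 613, which overlaps), 132 in MHC class II-high, 77.4 in microglia-like and 48.9 in astrocyte-like cells.

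The genes that work with the receptors were taken as 6 lists. Over whole libraries, in control IgG high against low, 14 of the 15 genes of activating signalling below the receptors were higher (median log2 difference 2.66, against -0.09 over all genes). Of all genes, 2322 of 21992 were higher there. They include Btk (2.94), a kinase, Vav1 (3.32), an exchange factor of the phagocytic cup, and Prkcd (1.74). Of the inhibitory list 11 of 13 were higher (median 2.25), such as the phosphatase Ptpn6 (2.72), the adaptor Dok3 (2.56) and the receptor Cd72 (3.63). Of the sister adaptor and its partners 5 of 6 were higher (median 2.04), with Tyrobp at 2.28 and Trem2 at 1.94, and of the phagocytic cup and phagosome 12 of 16 (median 2.04), with Ncf1 at 2.58 and Cd68 at 2.19. Of other receptors that pair with Fcer1g, 0 of 7 tested were higher and Clec4e was lower, and of other Fc receptors Fcrls was higher (3.66) while Fcgrt (-1.23) was lower, as was Fcmr. In ATV-TfR high against negative the first 4 lists were lower in 15 of 15, 11 of 13, 6 of 6 and 11 of 16 genes (8397 of all 21992 genes were lower, and the median of all was -0.34), while Fcgrt (3.38) was higher.

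Within classes the shares of all genes called were small, and the counts from the lists are to be read against them. In control IgG high against low (1.82% of genes called) 3 genes of the lists were lower in the 5 groups together. They are Fgr, a Src family kinase (-2.35, adjusted p = 0.000352) and 1 of 15 activating genes tested, Clec4n, which signals through Fcer1g (-2.40) and was the 1 gene of its list tested, and Sirpb1c (-2.92), 1 of 6 of the sister adaptor and partners. Of the inhibitory genes 0 of 13 passed. Fgr is among the leading genes of the Plac8-high cells, which made up 25 of 239 and 35 of 367 of these cells in control IgG low and 2 of 403 and 8 of 519 in high. The part of this mix was not tested. In MHC class II-high cells Clec5a, 1 of 5 of the sister adaptor and partners, was lower in ATV-TfR high against negative (-2.01, with 5.98% of genes called). Ctsd, 1 of 16 of the phagocytic cup and phagosome, was lower in ATV-CD98hc high against low (-1.65, with 3.92%). In microglia-like cells the inhibitory receptor Cd72 was higher in ATV-CD98hc high against negative (3.81, adjusted p = 5.58e-05, with 2.95% of genes called), in ATV-TfR low against negative (2.28, with 4.45%) and in control IgG low against negative (4.14, with 2.06%). Lilrb4a, another inhibitory receptor, was higher in the first 2 of these (4.04 and 2.80), as was Cybb, the oxidase subunit of the phagosome (4.96 and 2.38). In these 3 comparisons 2, 2 and 1 of 13 inhibitory genes were higher and 0, 0 and 1 lower, and 2, 1 and 0 of 16 of the phagosome list and 1, 1 and 2 of 15 activating genes were higher. The marker sums of monocytes or dendritic cells given above move with these genes as well, and their part was not tested.

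The genes most like each member over 59 sums of a class in a treatment were taken by Pearson's r of log2(CPM + 1) among 16770 genes. These points share libraries and depth, so r is a description. Fcgr1 was nearest to P2ry6 (0.93), Csf1r (0.93) and Tlr7 (0.93), and Fcgr3 to its own chain Fcer1g (0.95), Gm46224 (0.95) and Card9 (0.95). Fcgr4 was nearest to Igsf6 (0.91), Lst1 (0.90) and Klra2 (0.89). Fcgr2b was nearest to Spi1 (0.95), which encodes PU.1, Wdfy4 (0.94) and Unc93b1 (0.93), and Fcer1g to Myo1f (0.97), Tyrobp (0.96) and Itgam (0.96). The order depends on the scale: Spi1 was at rank 20 for Fcgr2b with a pseudocount of 10 and at rank 16 by Spearman's rho, and Wdfy4 and Unc93b1 left the nearest 3 under both. By rho, Igsf6 for Fcgr4 and Tyrobp and Itgam for Fcer1g stayed among the nearest 3, and none of those named for Fcgr1 and Fcgr3 did.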

How the data were processed

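The deposited matrix holds UMI counts per gene and cell barcode, made by the authors with Cell Ranger 7.1.0 per the file headers. Genome build GRCm38 (mm10) is named in the submitters' processing notes. Barcodes with at least 500 genes and 800 UMIs and at most 10% mitochondrial UMIs were kept. Doublets were removed with Scrublet, by its automatic threshold in 15 libraries and at percentile 94 of the score in 8. Cells were clustered with scanpy 1.11.5 (2000 variable genes, 50 components, 15 neighbours, Leiden resolution 1), without the 5 genes, into 35 clusters, and leukocytes again into 23. Names came from 22 marker lists. The members and lists were chosen with earlier results of these data known.

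UMIs were summed per library and class where a library had at least 20 such cells. They were tested with edgeR 4.0.16 (TMM scaling, quasi-likelihood test, Benjamini-Hochberg adjustment, 0.05). Some contrasts within classes were chosen after cell numbers were seen. The fitting was tested on simulated data: of genes changed by 2 on the log2 scale between control IgG high and low, 51 of 97 were recovered over whole libraries and 90 of 98 in the 5 groups together (border macrophage-like and those called by leading genes), and of those changed by 1, 13 of 98 and 26 of 93. For ATV-CD98hc against control IgG in the high bin of MHC class II-high cells, 85 of 97 and 20 of 93 were. Intervals and floors cover counting error only. The bins of a pool share their mice, so replicate numbers pair samples within a treatment. Between treatments they pair nothing, since the pools are different mice. Deviations of same-numbered libraries correlated at -0.05 to 0.48 over whole libraries, and in control IgG at 0.34 to 0.53 in the 5 groups and 0.32 to 0.58 in MHC class II-high cells. In the ATVs they were -0.03 to 0.15 and -0.05 to 0.15, and in microglia-like cells 0.04 to 0.18. With the pool as a replicate block, Fcgr4 in the 5 groups differed by 1.30 between control IgG high and low. Genes beyond the 5 were named by the smallest adjusted p, at most 5 per list and contrast, and by the highest correlation. Alternatives were DESeq2 1.42.0, RLE scaling, other filters, no removal of doublets, all barcodes and leaving out each pool. In the classes tested other than endothelial-like cells, cells with a UMI of Cldn5, Flt1, Slc1a2 or Aldoc (endothelial or astrocyte markers) were also left out.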

Additional observations from a re-analysis of the deposited data

Results flagged for a closer look

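The difference of the high against the negative bin over whole libraries differed between treatments for each of the 5 genes, by a test of the difference itself (edgeR, adjusted over all genes). The control IgG side rests on 1 negative library. Between ATV-TfR and control IgG the log2 values were -8.36 for Fcgr1, -7.68 for Fcgr3, -8.77 for Fcgr4, -7.68 for Fcgr2b and -8.48 for Fcer1g. Between ATV-CD98hc and control IgG they were -4.96 for Fcgr1, -4.79 for Fcgr3, -5.29 for Fcgr4, -5.22 for Fcgr2b and -5.88 for Fcer1g. Between ATV-TfR and ATV-CD98hc they were -3.40 for Fcgr1, -2.89 for Fcgr3, -3.48 for Fcgr4, -2.46 for Fcgr2b and -2.60 for Fcer1g. These last values are the differences of the other pairs. In border macrophage-like cells and the 4 groups called by leading genes together the same difference between ATV-TfR and control IgG was -1.05 ± 0.39 for Fcer1g (adjusted p = 0.298, edgeR), and none of the 5 genes passed.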

How the results depend on the processing

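Of 2301 values of single genes under the alternatives, 0 reversed, 2263 kept their side of the threshold, 16 lost it and 22 gained it. A change of sign counted as reversed only where the main or the alternative fit called the gene. Changes of sign between uncalled values were not counted. Between the ATVs in the high bin, the number of members lower in ATV-TfR (3) ran from 0 to 4 with 1 pool left out and was 5 with the replicate block. The number higher in the negative bin (5) ran from 1 to 5. In the 5 pooled groups, 1 member (Fcgr4) was higher in control IgG high than in low with no filter, with the replicate block and with at least 50 cells per library, against 0. For ATV-CD98hc against control IgG, 1 (Fcer1g) was lower in the high and in the medium bin with no filter and with the block. With 1 pool left out, 0 to 1 were higher and 0 to 1 lower in the high bin, 0 to 1 were higher in the medium bin, and 0 to 1 were higher for ATV-TfR against control IgG in the high bin. The block also gave 1 call of Fcer1g in MHC class II-high cells (ATV-CD98hc high against low) and 1 in microglia-like cells (ATV-TfR low against negative), and it changed no other call. Between treatments the block pairs no libraries, since the pools are different mice that share only a number, and it takes the spread between pools out of the error, so the calls it gained there are not read. DESeq2 gave 1 call of Fcgr4 in microglia-like cells in control IgG low against negative, 1 in ATV-CD98hc against control IgG in the low bin (also 1 with no filter), and 3 in endothelial-like cells of ATV-TfR against 1. The stricter filter left 2 of the 4 members to be tested in endothelial-like cells of ATV-CD98hc, and both were called. Leaving out cells with endothelial or astrocyte UMIs, done in all classes tested but endothelial-like cells, changed no call of a member. In those classes the main fit called no member, so there was no call to lose. The count over all genes moved by over 1.5 times in 12 of 143 refits of whole libraries, 49 of 101 of the 5 pooled groups, 33 of 77 of MHC class II-high, 20 of 33 of border macrophage-like, 32 of 96 of microglia-like and 4 of 22 of endothelial-like cells. The median of all genes shifted by -0.40 to 0.36 over whole libraries. Of 45 alternative values of the share of cells with a UMI, 28 moved beyond the counting interval and 17 did not. These alternatives thin each cell to a set number of UMIs, which takes UMIs of the members away, and leave out shallower cells. Of 30 alternative values of the likeness between genes, 12 kept the gene among the nearest 3 and 18 did not, among them all those of the 3 genes nearest to Fcgr2b. Apart from the thinning, the cause of these changes was not tested. Fcgr4 rests on few UMIs in microglia-like and border macrophage-like cells, which limits the precision of its values there.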
